A study of Mus musculus with 4 samples.

Results

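The skeletal myosin heavy chain genes Myh3, Myh2, Myh1, Myh4, Myh8 and Myh13 lie in this order on the plus strand of mouse chromosome 11, and their polyadenylated 3′ ends are described here. Each gene was taken as a fixed window of the mm9 build, the 25 kb that end at 66916500 for Myh3, 66984000 to 67012500 for Myh2, 67013000 to 67039500 for Myh1, 67053000 to 67075000 for Myh4, 67090000 to 67123000 for Myh8 and the 46 kb from 67140000 on for Myh13. All plus-strand cleavage positions and CLIP alignments with their midpoint in a window were counted. The 6 windows held 50 of the 56206 cleavage sites with 3 or more reads in the series, a site being a run of positions at most 24 nt apart. The genes were chosen by their 3'READS reads and CLIP alignments in these files, so the values are given as a description.

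Myosin heavy chains are the motor proteins of the thick filament of striated muscle, and the speed at which they split ATP sets how fast a fibre shortens. Muscle switches between the genes of this cluster as it matures. Myh3 encodes the embryonic chain and Myh8 the perinatal chain, and adult fast fibres replace them by Myh2 (type IIa), Myh1 (type IIx) and Myh4 (type IIb, the fastest limb muscle chain of the mouse). Myh13 encodes the chain known from extraocular muscle. The 3′ end of an mRNA is made by cleavage downstream of a poly(A) signal, usually AATAAA in DNA letters, followed by addition of a poly(A) tail.

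The reads came from 3'READS, which captures poly(A)-bearing RNA fragments on beads and sequences them to place the cleavage position. The RNA was a commercial mix of 11 mouse cell lines. Which lines it holds is not given here. It was captured once with the CU5T45 oligo, which carries 5 U and 45 T and was washed stringently before release with RNase H, and once with oligo(dT)10-25 beads. The CU5T45 library held 6738355 reads and the oligo(dT)10-25 library 3482826. CstF64, which binds RNA within the cleavage stimulation factor, was mapped by CLIP-seq in proliferating C2C12 cells, an established mouse myoblast line that was crosslinked with UV light of 254 nm. Its replicates held 1101047 and 1352122 distinct alignments. There was 1 library per oligo, so no replicate error is known, no test between the oligos could be made, and every interval below is a 95% interval for counting error only. PCR copies are not independent molecules, and such intervals are too narrow for that reason.

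The annotated ends of the 6 genes are shown because the spacing of the main sites is compared with theirs below. Each stretch begins at the poly(A) signal nearest the annotated end, in capitals, and runs for at most 30 bases in the last exon of the GENCODE vM21 transcript with the farthest end (GRCm38 build, plus strand).
Myh3: AATAAAgtttgccttgtttcaagttgg
Myh2: AATAAAaagcccaagttcctttgcaagcaa
Myh1: GATAAAaaatttatctgccaa
Myh4: AATAAAttctgcagataattttgcaatcta
Myh8: AATAAAaactacaaggcattggtaaatcaa
Myh13: AATAAAccctcctgcagattcag
They lie at chr11:67102265-67102291, chr11:67197485-67197514, chr11:67224555-67224575, chr11:67260417-67260446, chr11:67308604-67308633 and chr11:67371564-67371586 of GRCm38, in the order of the lines. The last 40 bases were searched on the transcript strand only, first for AATAAA, then for its variant ATTAAA, then for the variant GATAAA. The first of these was found in 5 genes, and in 57.5% of 21862 coding genes searched the same way. Myh1 held GATAAA and neither of the other motifs. Of the coding genes, 2.10% held GATAAA, counted whether or not another of these motifs was also present. A match is a description of the sequence and not of a used signal. From the end of the motif to the annotated end there were 15 bases in Myh1, 17 in Myh13, 21 in Myh3, 24 in Myh4, 25 in Myh8 and 27 in Myh2.

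The main cleavage sites of the 5 genes that had one lay at the annotated spacing of the gene ends, which ties the windows to the named genes without moving coordinates between builds. From the main site of Myh2 to that of Myh1 there were 27061 nt in mm9, and 27058 nt between the annotated ends in GRCm38. The distances were 35867 and 35871 nt from Myh1 to Myh4, 48192 and 48188 nt from Myh4 to Myh8, and 62954 and 62952 nt from Myh8 to Myh13. The members resemble each other over most of their length but not at the end. Whole transcripts of the 15 pairs were 76.5% to 89.6% identical in a global alignment, and their last 100 bases 48.6% to 61.1%. Of all 72-base windows of the transcript, 72 nt being the read length, Myh1 shared 17.6% with another member, Myh2 17.3%, Myh8 13.9%, Myh4 10.7%, Myh13 5.39% and Myh3 2.04%. In the last 200 bases Myh1 shared 21 of 129 such windows, and the other 5 genes shared 0. Windows of 32 bases are closer to the CLIP alignments, whose median length was 35 and 36 nt. Of these, Myh1 shared 61 of 169 in the last 200 bases, Myh2 38, Myh4 29, Myh8 7, and Myh3 and Myh13 0. Over the whole transcript the share ran from 10.4% (Myh3) to 38.7% (Myh1). How much of each 3'READS read was aligned is not known here. Every member shared a larger part of its 32-base windows than of its 72-base windows, so the latter can understate what such reads share. The shared 32-base window nearest an annotated end stopped 108 nt before it, in Myh1. Reads from the gene bodies are therefore less certain in their gene than reads that end at the main sites, and the sources used here do not give how reads with several matches were treated.

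**Figure D1:**
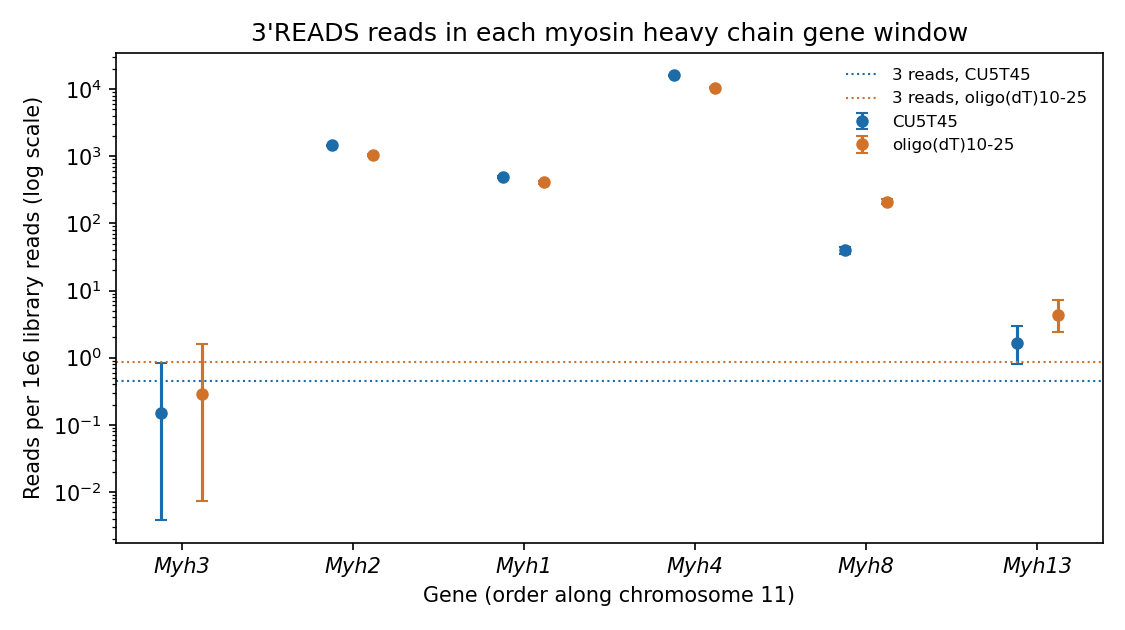
Reads per 1e6 library reads (log scale) in the window of each gene for the CU5T45 library (blue) and the oligo(dT)10-25 library (orange), with exact 95% counting intervals as bars and the level of 3 reads as dotted lines. Myh4 stands highest in both libraries, Myh3 lies under both dotted lines, and Myh8 is the gene with the widest gap between the libraries.

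Reads of the adult fast chains filled the locus, and those of the embryonic chain were all but missing. Myh4, the IIb chain, had 108252 CU5T45 reads and 36907 oligo(dT)10-25 reads, a level of 16065 and 10597 per 1e6 library reads (CPM). Myh2, the IIa chain, had 9834 and 3593 reads, or 1459 and 1032 CPM. Both libraries thus placed Myh2 second, with 11.0 and 10.3 reads of Myh4 for each read of Myh2. Myh1, the IIx chain, had 3346 and 1425 reads, or 497 and 409 CPM. It came next in both libraries, with 32.4 and 25.9 reads of Myh4 for each of its own. Each fragment is counted at its 3′ end, so these levels were not divided by transcript length. In such a mix, fewer cells of a type and less RNA per cell cannot be told apart.

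The developmental and extraocular chains stood lower. Myh8, the perinatal chain, had 271 and 738 reads, or 40.2 and 212 CPM. It came after the adult fast chains in both libraries, and its level in the oligo(dT)10-25 library was above that in the CU5T45 library, the opposite of the order at Myh4, Myh2 and Myh1. Myh13, the extraocular chain, had 11 and 15 reads, or 1.63 and 4.31 CPM. Myh3, the embryonic chain, had 1 read in each library at different positions, which is under the limit of 3 reads that a count of 0 allows (0.445 and 0.861 CPM). The counting intervals of neighbours in this order did not overlap within either library, except those of Myh13 and Myh3 with CU5T45 (0.815 to 2.92 and 0.00376 to 0.827 CPM). The order of the 6 genes was the same with both oligos.

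As a share of the 121715 CU5T45 and 42679 oligo(dT)10-25 reads in the windows, Myh4 took 88.9% (88.8 to 89.1) and 86.5% (86.1 to 86.8). Myh2 took 8.08% (7.93 to 8.23) and 8.42% (8.16 to 8.69). Myh1 took 2.75% (2.66 to 2.84) and 3.34% (3.17 to 3.51). The intervals of the libraries were separate for Myh4 and Myh1 and overlapped for Myh2. Myh8 took 0.223% (0.197 to 0.251) and 1.73% (1.61 to 1.86), the member whose part of the locus differed by the largest factor between the libraries. All 6 windows together made up 1.81% of CU5T45 reads and 1.23% of oligo(dT)10-25 reads.

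The label of the RNA names a mix of cell lines, and of the muscle genes described here its reads were led by the chain of adult fast fibres. Myh4 had the site of rank 3 among 56112 nuclear sites over both libraries (rank 3 with CU5T45 and 6 with oligo(dT)10-25). The main site of Myh2 ranked 93, that of Myh1 283 and that of Myh8 1446. Which of the 11 lines carried these RNAs was not tested. Other muscle and marker genes were not analysed here, because the annotation used was of another build than the files.

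The comparison of the oligos asks whether both gave a site the same share of reads. At the main sites the 3 adult fast chains had a higher share with CU5T45 and the perinatal chain a lower one. The ratio of shares, CU5T45 over oligo(dT)10-25, was 1.52 (1.50 to 1.54) at the main site of Myh4, with 108060 and 36748 reads. It was 1.39 (1.34 to 1.45) at that of Myh2, with 8890 and 3296 reads. At that of Myh1 it was 1.23 (1.15 to 1.31), with 3252 and 1371 reads. All 3 values lay between the median of 1.08 and the upper quartile of 1.55 over the 16684 sites of the series with 30 or more reads. The main site of Myh8 had 264 CU5T45 and 731 oligo(dT)10-25 reads, a share 5.36-fold lower with CU5T45 (4.65 to 6.19). It was the only 1 of the 11 tested sites of the locus that was at least 4-fold lower with an interval under 1, as were 4.51% of all tested sites. None of the 11 was 4-fold higher, as were 1.75% of all tested sites. Myh13 had 10 and 14 reads at its main site, a ratio of 0.369 (0.147 to 0.894), with too few reads for a call. With each distinct position counted once, over the positions of each library, the ratio for the whole gene was 0.992 for Myh2, 0.843 for Myh1, 0.833 for Myh4 and 0.511 for Myh8, and each interval included 1.

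The ratios of the main sites also differed from each other by more than counting error. The ratio at Myh4 was 1.09 times that at Myh2 (1.05 to 1.14) and 1.24 times that at Myh1 (1.16 to 1.32), by log-odds intervals. It was 8.14 times that at Myh8 (7.07 to 9.38), whose main site lies 48192 nt away. Myh2 had 1.14 times the ratio of Myh1 (1.06 to 1.23). The difference between Myh8 and the adult fast chains is the largest of these, and those among the adult chains are small. Variation between libraries of 1 oligo is not known and could be as large.

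**Figure D2:**
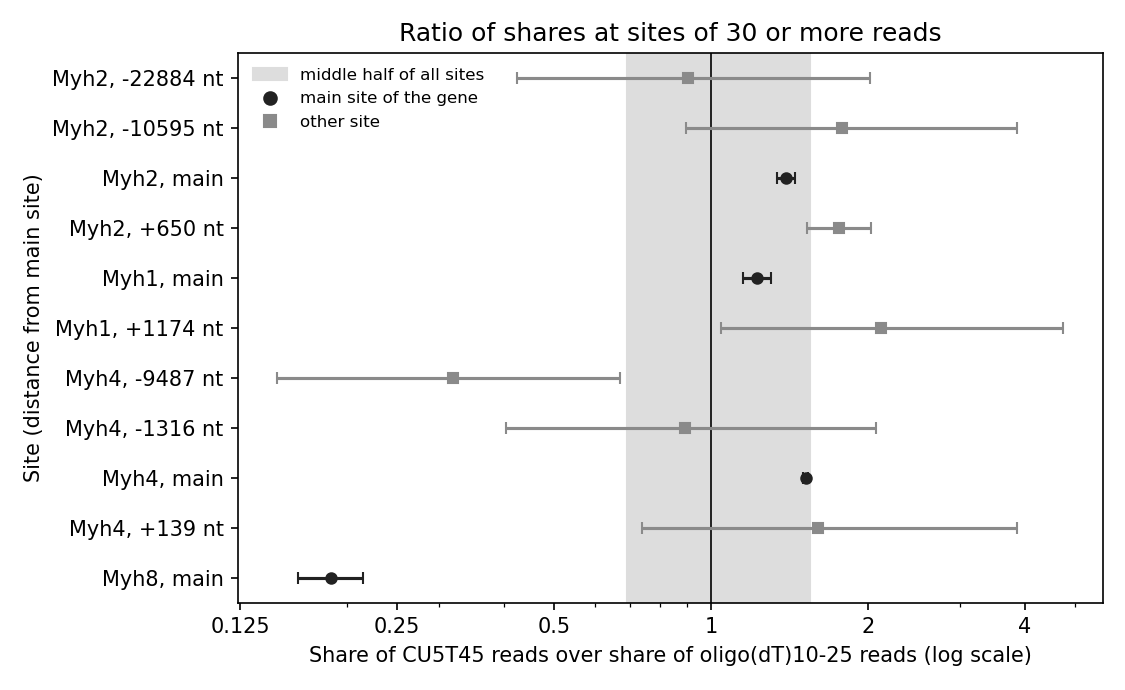
Ratio of the share of CU5T45 reads to the share of oligo(dT)10-25 reads (log scale) at the 11 sites of the locus with 30 or more reads, with 95% counting intervals. Main sites are black dots, other sites grey squares named by their distance from the main site, and the grey band is the interquartile range of 16684 sites. Myh8 lies far left of the band at 0.187, and the main sites of Myh4, Myh2 and Myh1 lie within it.

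Over all sites in the windows, 23 had 10 or more reads and 11 had 30 or more. Of these 11, 5 had a higher share with CU5T45 with an interval above 1, against 27.5% of all 16684 tested sites, and 2 a lower share, against 23.5%. The remaining 4 had an interval that included 1. Sites with more reads have narrower intervals and are called more readily, and the background shares were not taken over sites of like depth. The 5 higher sites were the main sites of Myh4, Myh2 and Myh1 and a downstream site each of Myh2 and Myh1. The 2 lower ones were the main site of Myh8 and a small site inside Myh4. The latter is a run of 15 positions over 83 nt with 13 and 21 reads, and so is not a sharp end like that of Myh8.

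Myh4 mRNA ended almost entirely at 1 site. The site at mm9 67073943, spread over 94 nt and 27 positions, held 99.8% of the CU5T45 reads of the window and 99.6% of its oligo(dT)10-25 reads. The most used position had 84446 and 25734 reads, which is 78.1% (77.9 to 78.4) and 70.0% (69.6 to 70.5) of the site. The same share had a median of 75.8% and 76.1% over 3903 nuclear sites of at least 100 reads per library. A second position 7 nt downstream, 67073950, had 16269 and 7909 reads, or 15.1% (14.8 to 15.3) and 21.5% (21.1 to 21.9). The oligos thus gave this pair of neighbouring ends in different proportions. The ratio of shares was 1.70 (1.67 to 1.72) at the first and 1.06 (1.03 to 1.09) at the second. Positions 5 and 4 nt upstream of the first, with 1232 and 1515 CU5T45 reads, had ratios of 0.995 (0.904 to 1.10) and 0.999 (0.916 to 1.09). Positions 8 and 6 nt upstream, with 2742 and 396 CU5T45 reads, had ratios of 1.32 (1.23 to 1.42) and 1.30 (1.07 to 1.57), so the ratio did not run in order along the site. A further site 139 nt downstream had 28 and 9 reads.

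The Myh2 window was the one with a clear second site. Its main site at 67011015 held 90.4% (89.8 to 91.0) of CU5T45 and 91.7% (90.8 to 92.6) of oligo(dT)10-25 reads of the window. A single position took 91.4% and 90.2% of the reads of this site, 8125 and 2973 reads. A second site 650 nt downstream, at 67011665, had 861 and 253 reads. It lies beyond the farthest annotated end of a coding Myh2 transcript, to which the main site was tied by spacing. Its place in Myh2 therefore rests on the window alone. Of the reads of both sites together, the downstream site took 8.83% (8.27 to 9.41) with CU5T45 and 7.13% (6.30 to 8.03) with oligo(dT)10-25. Its ratio of shares, 1.76 (1.53 to 2.03), was 1.26 times that of the main site (1.09 to 1.46). The cleavage was more spread there, with 59.2% and 48.2% of reads at the most used position, 26.9% and 34.4% 2 nt downstream and 10.6% and 11.1% 9 nt downstream.

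The Myh2 window also held a pair of small sites far upstream of the main one. The site 22884 nt upstream, at 66988131, had 21 and 12 reads. GENCODE vM21 lists a short Myh2 transcript that retains an intron and ends 22895 nt before the end of the full transcript in GRCm38. The site 10595 nt upstream, at 67000420, had 38 and 11 reads. Neither ratio, 0.905 (0.425 to 2.02) and 1.79 (0.894 to 3.87), could be told from 1 at this depth.

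**Figure D3:**
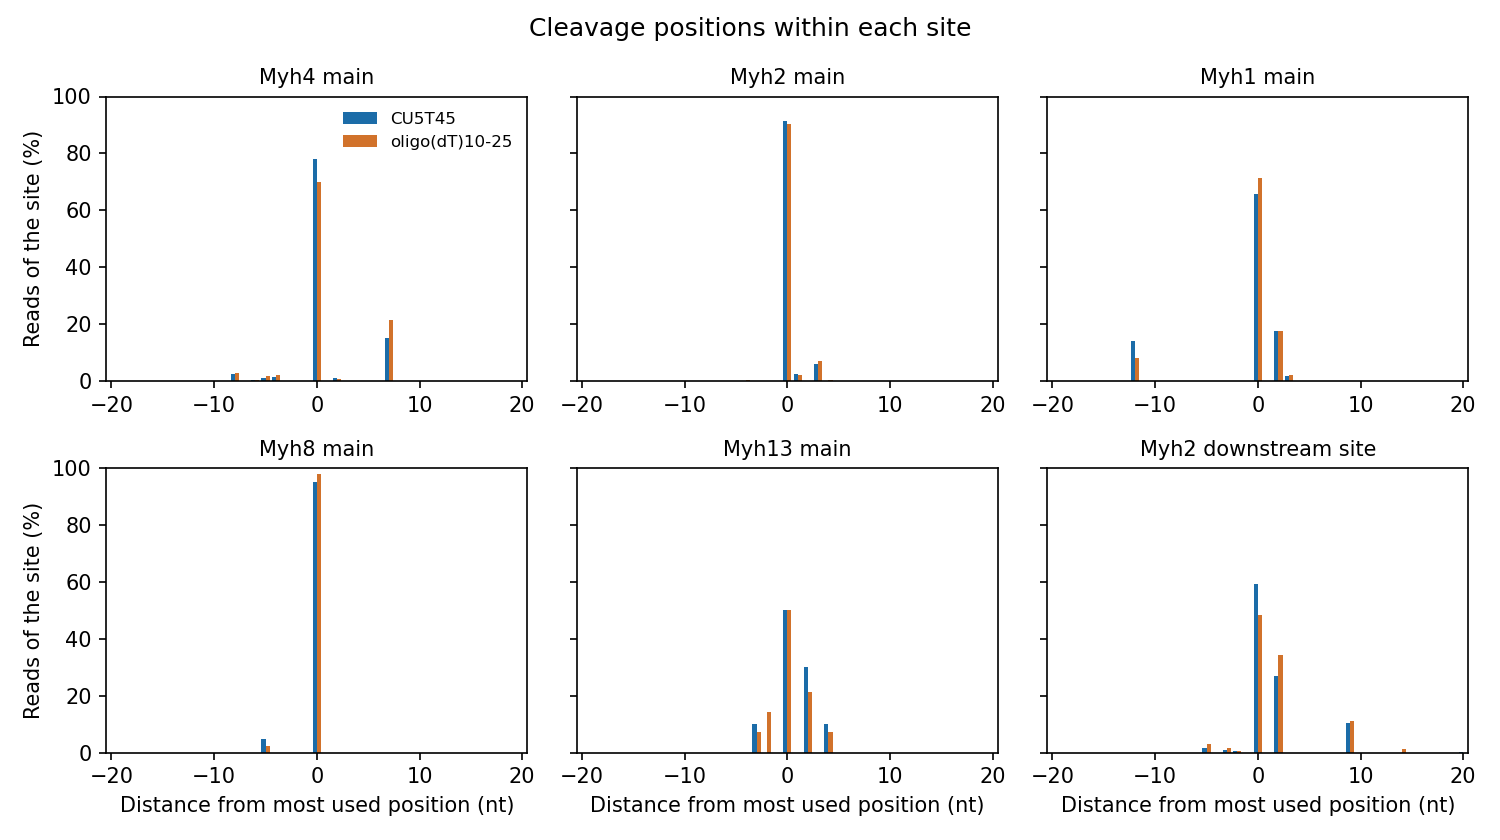
Percent of the reads of a site (from 0 to 100) at each position within 20 nt of the most used position, which is set to 0, for CU5T45 (blue) and oligo(dT)10-25 (orange), at 5 main sites and the downstream site of Myh2. Myh2 and Myh8 have 1 dominant position, Myh4 has a second one 7 nt downstream with 15.1% and 21.5%, and Myh1 has one 2 nt downstream with 17.7% and 17.6% and one 12 nt upstream with 14.2% and 8.10%.

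Myh1 mRNA ended at a main site with 3 used positions. This site, 67038076, held 97.2% (96.6 to 97.7) and 96.2% (95.1 to 97.1) of the reads of the window. The most used position took 65.8% (64.2 to 67.5) with CU5T45 and 71.3% (68.8 to 73.6) with oligo(dT)10-25. The position 2 nt downstream took 17.7% and 17.6%. The position 12 nt upstream, 67038064, had 461 and 111 reads, or 14.2% (13.0 to 15.4) and 8.10% (6.71 to 9.67). Here the upstream end had the larger part with CU5T45, with a ratio of shares of 2.15 (1.74 to 2.67) against 1.13 (1.05 to 1.22) at the most used position. At 1174 nt downstream a site made of a single position had 41 and 10 reads, a ratio of 2.12 (1.04 to 4.74).

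Myh8 ended at a sharp site, which is not rare. Over 3903 nuclear sites of at least 100 reads per library, the share of the most used position had upper quartiles of 91.8% and 92.3%. The main site of Myh2, with 91.4% and 90.2%, lay under these. At 67122135 the most used position took 251 of 264 CU5T45 reads, 95.1% (91.7 to 97.4), and 715 of 731 oligo(dT)10-25 reads, 97.8% (96.5 to 98.7). The other 13 and 16 reads lay 5 nt upstream. The low share of this gene with CU5T45 was therefore present at a single deposited position, where the ratio was 0.181 (0.157 to 0.210). The Myh13 site at 67185089 spread its 10 and 14 reads over 8 nt, with 50.0% of them at the most used position in each library. Myh3 had 0 sites of 3 or more reads.

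Besides the main sites, reads were scattered over the gene bodies, and summed over the whole body those of Myh4 and Myh1 had a lower share with CU5T45. Upstream of the main site, the Myh4 window held 212 positions, from 102 to 19754 nt away, of which 149 had 1 read over both libraries and none more than 8. They summed to 164 CU5T45 and 150 oligo(dT)10-25 reads, or 24.3 and 43.1 CPM, a ratio of 0.565 (0.450 to 0.710). They made up 0.151% (0.129 to 0.177) of the CU5T45 reads of the window and 0.406% (0.344 to 0.477) of its oligo(dT)10-25 reads. Most lay within 10000 nt of the site, with 24.4 to 33.3 reads per kb, against 2.73 per kb from 10000 to 21000 nt. The lower share was not seen in the 2000 nt nearest the site, where 43 and 19 reads gave a ratio of 1.17 (0.667 to 2.13). It was 0.538 (0.356 to 0.813) from 2000 to 5000 nt and 0.424 (0.292 to 0.615) from 5000 to 10000 nt. Beyond that, 15 and 15 reads gave 0.517 (0.235 to 1.13). The largest small site, 9487 nt upstream, had 13 and 21 reads over 15 positions, a ratio of 0.320 (0.147 to 0.670).

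**Figure D4:**
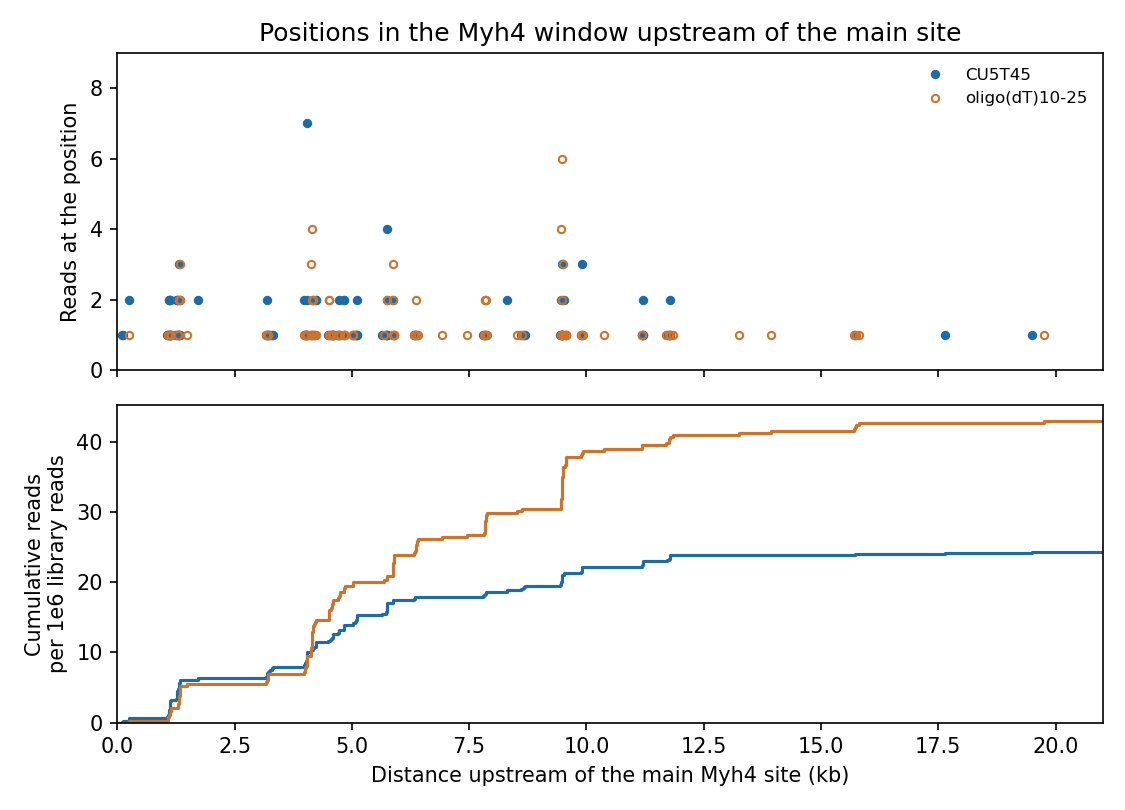
Reads at each position of the Myh4 window upstream of the main site (upper panel) and their cumulative sum per 1e6 library reads (lower panel) against the distance from that site in kb, for CU5T45 (blue) and oligo(dT)10-25 (orange). No position exceeds 8 reads over both libraries, and the curves part beyond about 4 kb to end at 24.3 and 43.1.

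Summed over the body, Myh1 showed the same order of values. The positions upstream of its main site had 44 and 40 reads, a ratio of 0.569 (0.362 to 0.895), and none had more than 3 reads. Its largest small site, 2396 nt upstream, had 14 and 3 reads, a ratio of 2.41 (0.673 to 13.1), with too few reads for a call. The reads of Myh1 were not split by distance. In Myh2 the upstream reads were 77 and 39, at a ratio of 1.02 (0.686 to 1.54), and its sites 22884 and 10595 nt upstream account for 59 and 23 of them. The scattered reads of Myh2 without these sites were not compared on their own. Its ratio therefore does not describe scattered reads, and no difference from Myh4 and Myh1 can be read from it. Myh8 had 7 and 7 upstream reads, too few for a comparison. The body of Myh4 was set beside other abundant sites, as the positions with fewer than 50 reads lying 100 to 20000 nt upstream of nuclear sites with 10000 or more reads. Of the 114 such sites, Myh4 and 62 others had 30 or more upstream reads. In 28 of the 62 the ratio upstream was under that of the site itself, and in 7 the interval was under 1. The median upstream ratio of the 62 was 1.19, and 4 of them lay under the value of Myh4. The 62 include the main site of Myh2, whose upstream ratio by this measure was 1.05 (0.647 to 1.76). That value holds the site 10595 nt upstream, with 38 and 11 reads, whereas no upstream position of Myh4 had more than 8. The measure thus mixes scattered reads with small sites, and the 2 were not told apart in the 62. These stretches can hold other genes, since no annotation of this build was used. The members have 72-base windows of their bodies in common, and the part of this in the result was not tested.

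In C2C12 cells, CstF64 alignments were nearly missing from the locus. The 181 kb of windows held 4 distinct alignments in replicate 1 and 2 in replicate 2 on the plus strand, and 0 on the minus strand in both. Over all lines, 80.7% of replicate 1 were also in replicate 2, so the replicates were not treated as independent. Myh3 had 3 alignments in replicate 1, at 66900042 to 66900096, 66902514 to 66902535 and 66904773 to 66904817, and the second of these, 21 nt long, was the only one in replicate 2, with 2 reads. Myh2, Myh1, Myh8 and Myh13 had 0 in both. Whether a stretch as short as 21 nt also occurs in another member was not tested.

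The single alignment of Myh4 was the same in both replicates, with 1 read each. It ran from 67073890 to 67073936 and thus covered 53 to 7 nt upstream of the most used cleavage position of the cell line mix. The cell line mix and C2C12 are different sources of RNA, and how much Myh4 RNA the C2C12 cells held was not measured. Of the 113 other nuclear sites with 10000 or more reads, 68 and 67 had 0 alignments within 100 nt, and the median was 0 in both replicates. A low count beside an abundant site of the mix is thus common. In the 25000 nt just upstream of the Myh3 window, chosen after seeing the data, there were 22 and 25 plus-strand alignments, with 65 CU5T45 and 36 oligo(dT)10-25 reads. The nearest annotated neighbour of Myh3 on that side is Sco1, a gene for assembly of cytochrome oxidase.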

How the data were processed

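The deposited values are counts of reads per cleavage position and strand (3'READS) or per distinct alignment (CLIP-seq), without normalization, per the labels and the files. The submitters' processing notes name mm9, Bowtie and Novoalign, and versions, roles and read filters are not given in the sources used here. Positions are given as deposited and may be shifted by 1 nt, as the sources do not tell if they count from 0 or 1. Other errors in placing a cleavage position, as where the genome itself has A at the end, were not assessed. Per the labels, the 3'READS libraries had 12 PCR cycles.

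The members, windows and lists were chosen with earlier results of these data known. Every member is named, and each of its sites of 10 or more reads was counted. Positions of both oligos were pooled and chained at gaps of up to 24 nt, and sites of 3 or more reads kept. CPM is reads per 1e6 library reads. Ratios of shares have exact conditional binomial 95% intervals, shares Clopper-Pearson intervals, and ratios of ratios log-odds intervals. A call needed 30 reads and an interval that excluded 1. CLIP-seq alignments were placed by midpoint. No p-value was computed. On simulated Poisson counts at 16684 sites a change was called in its own direction for 80.0% of 2-fold and 99.0% of 4-fold changes, and a call was made for 3.91% and 3.89% of unchanged sites. Such counts follow the model of the intervals and hold no PCR copies or variation between libraries. The error rate of the calls in the real libraries is therefore not known.

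Tools were scipy 1.17.1, numpy 2.4.6, pandas 2.3.3, edlib 1.3.9.post1 and matplotlib 3.10.9 under Python 3.11.15. Transcript ends and sequences came from GENCODE vM21 (GRCm38), and coordinates were not converted. Alternatives changed the counting, windows, totals, depth, gap, minimum, CLIP-seq placement and replicates.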

Additional observations from a re-analysis of the deposited data

Results flagged for a closer look

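The minus strand of the locus, which the counts of the genes do not use, held 300 CU5T45 and 143 oligo(dT)10-25 reads and 4 sites of 10 or more reads, each above the 3 reads that a count of 0 allows. Between the windows of Myh3 and Myh2, the site at 66927455 had 113 and 63 reads, a ratio of shares of 0.927 (0.675 to 1.28). In the same stretch, the site at 66927483 had 32 and 22 reads, and the site at 66925940 had 57 and 38, with ratios of 0.752 (0.423 to 1.36) and 0.775 (0.505 to 1.20). GENCODE vM21 lists the noncoding RNA gene 2310065F04Rik on the minus strand between Myh3 and Myh2. Its annotated end lies 85056 nt before that of Myh2 in GRCm38, and the site at 66925940 lies 85075 nt before the main Myh2 site in mm9.

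Inside the Myh2 window, the minus-strand site at 67010709 had 74 reads with CU5T45 and 14 with oligo(dT)10-25, and the ratio of shares was 2.73 (1.53 to 5.24). It lies 306 nt upstream of the main Myh2 site, on the other strand. On the plus strand between the windows there were 3 and 4 reads, and 0 sites.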

How the results depend on the processing

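No paired analysis was possible because each oligo has 1 library and no test was made. Over 228 values under alternatives, 171 stayed within the counting interval (counts within 1.5 times), 54 moved and 3 reversed. Some of the 171 could not have moved, so the tally does not measure stability. A floor of 1 read changes no ratio where both counts are above 0. Leaving out mitochondrial reads does not alter the division of the locus, and thinning CU5T45 does not alter that of oligo(dT)10-25. The 3 are the ratios of shares with each distinct position counted once, which divides by the positions of each library: 0.992 for Myh2, 0.843 for Myh1 and 0.833 for Myh4, each with an interval that includes 1. Myh8 then had 0.511 (0.150 to 1.61), an interval that includes 1 as well. That counting also gave Myh4 57.5% of the locus with CU5T45 and 58.0% with oligo(dT)10-25. With it, the main site held 27.3% and 14.7% of positions in Myh2, 21.8% and 20.0% in Myh1, 16.7% and 12.3% in Myh4 and 33.3% and 22.2% in Myh8, CU5T45 first. Totals without mitochondrial reads gave a ratio of 1.47 for Myh4. Main sites alone gave Myh4 89.7% and 87.2% of the locus. Reads within 2 nt of the most used position made up 93.7% and 92.5% of the site in Myh2, 83.5% and 88.8% in Myh1 and 79.1% and 70.9% in Myh4. A minimum of 10 reads left 4 sites in Myh2, 4 in Myh1, 13 in Myh4 and 1 in Myh8, where a minimum of 3 gave 9, 11, 26 and 3. Without CstF64 replicate 1 or 2, Myh3 had 1 to 3 alignments, and Myh4 1 in either case. With 10 or more reads in place of 30, 618 sites were 4-fold higher and 1806 4-fold lower, against 292 and 753. Depth limits Myh3 and Myh13, whose few reads allow no comparison of the oligos.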

Other observations

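With Myh4 left out of the total, a choice made after seeing the data, the other 5 genes divided the reads of the locus differently in the libraries. Myh2 took 73.0% (72.3 to 73.8) of CU5T45 and 62.2% (61.0 to 63.5) of oligo(dT)10-25 reads. Myh8 took 2.01% (1.78 to 2.26) and 12.8% (11.9 to 13.7). Myh1 took 24.9% (24.1 to 25.6) and 24.7% (23.6 to 25.8), with overlapping intervals.

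Over the 2 oligo libraries, the abundant nuclear sites outside the locus nearest in log2 ratio of shares to the main site of Myh4 (0.60) were chromosome 3 at 112950579, minus strand, chromosome 9 at 46079493, plus strand, and chromosome 11 at 78315825, plus strand. Their log2 ratios were 0.61, 0.59 and 0.59, with 25620, 30167 and 16159 CU5T45 reads. Likeness over 2 libraries is a description only.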
